A study of Mus musculus with 6 samples.

Results

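Ephrins, semaphorins, Slits and netrins and the receptors that read them were followed as 69 genes, chosen by gene symbol from the 24453 rows of a table of visual cortex RNA. The symbols were those of the ephrins, Eph receptors, semaphorins, plexins, neuropilins, Slits, Robo receptors, netrins, Unc5 receptors and *Dcc*, without regard to level or change. They comprised 35 ligand genes and 34 receptor genes in 15 families. The cortex came from male C57BL/6J mice at postnatal day 14, either Chrdl1 KO (3 libraries) or wild type (WT, 3 libraries). The mice of both genotypes were perfused with paraformaldehyde before dissection. The sources used here do not give how the KO was made or whether each library is 1 animal, so a p-value speaks only of variation among the libraries. *Chrdl1* encodes a secreted antagonist of bone morphogenetic proteins.

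Guidance cues steer growing axons by attraction or repulsion at the growth cone. Ephrins are tethered to the membrane and bind Eph receptor tyrosine kinases, with signals that can pass into either cell. Secreted class 3 semaphorins mostly bind a neuropilin that is paired with a signalling plexin, whereas membrane-bound semaphorins can bind plexins directly. Slits are secreted repellents read by Robo receptors, and netrins are read by DCC and the UNC5 receptors. In the visual system ephrin-A gradients help to order the map of the retina, and several of these cues also act at synapses and blood vessels after axons have arrived.

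Levels are given in FPKM, the fragments of a gene corrected for the length of its exons and for sequencing depth. Depth was 26.4, 22.6 and 31.9 megareads in KO libraries 1, 2 and 3, and 38.2, 27.5 and 34.0 megareads in WT libraries 1, 2 and 3. The library numbers are those in the titles, and each number goes with a title code that 1 KO and 1 WT library share. *Chrdl1* measured 0.172, 0.190 and 0.120 FPKM in the KO libraries and 3.65, 3.57 and 3.09 FPKM in the WT libraries, which goes with the labels. Summed FPKM of 12 cortical excitatory neuron markers was 714 to 838 in KO and 721 to 828 in WT libraries. Most of it came from *Slc17a7*, at 565 to 689 FPKM in KO and 568 to 674 FPKM in WT libraries. Signs of neighbouring tissue differed between libraries. The summed level of 10 striatal neuron markers was 132, 302 and 135 FPKM in KO libraries 1 to 3 and 307, 288 and 262 FPKM in WT libraries 1 to 3. That of 5 choroid plexus markers was 313 FPKM in KO library 3 and 152 FPKM in WT library 1, against 4.17 to 6.49 FPKM in the other 4. Nearly all of the high sums came from 1 marker, *Ttr*, at 309.9 FPKM in KO library 3 and 149.6 FPKM in WT library 1.

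Most of the guidance genes were expressed at this age. Of the 69, 64 had a mean of 1 FPKM or more and were tested, beside 12863 of all 24453 rows. The highest was *Efnb3*, which encodes the membrane ligand ephrin-B3, at 47.0 ± 4.19 FPKM in KO and 47.1 ± 3.85 FPKM in WT cortex (SD, n = 3 each). *Sema7a*, a membrane-anchored semaphorin, followed at 45.4 ± 6.73 FPKM in KO and 47.3 ± 4.78 FPKM in WT, so the top pair did not differ beyond their spread. The receptor kinase gene *Epha4* stood at 38.6 ± 4.48 FPKM in KO and 38.1 ± 4.05 FPKM in WT. The transmembrane semaphorin gene *Sema6b* (31.5 ± 1.92 FPKM in KO, 31.4 ± 1.48 FPKM in WT) and *Ephb6*, whose protein lacks kinase activity (30.0 ± 2.53 FPKM in KO, 29.7 ± 0.856 FPKM in WT), were next and overlapped each other. The netrin receptor gene *Unc5a* and the Slit receptor gene *Robo2* came after these, at 23.8 ± 0.687 and 22.4 ± 3.21 FPKM in KO and 23.0 ± 1.39 and 23.2 ± 3.27 FPKM in WT.

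Levels within a family spread more widely than those between genotypes. *Epha4* stood at 38.6 FPKM in KO cortex while *Epha1* stood at 0.137 FPKM, and their WT means were 38.1 and 0.133 FPKM. The netrins themselves were low: the highest, *Ntn4*, a basement membrane netrin, averaged 3.04 ± 0.768 FPKM in KO and 2.68 ± 0.272 FPKM in WT, below each of the 5 netrin receptor genes apart from *Dcc* in KO, at 2.94 ± 0.196 FPKM. *Dcc* averaged 3.25 ± 0.323 FPKM in WT. Summed over the 20 semaphorin genes the level was 203 ± 12.5 FPKM in KO and 206 ± 8.75 FPKM in WT. The 14 Eph receptor genes summed to 136 ± 8.87 FPKM in KO and 134 ± 8.38 FPKM in WT. The 8 ephrin genes gave 107 ± 9.98 FPKM in KO and 105 ± 7.48 FPKM in WT, and the 9 plexin genes 99.6 ± 7.41 FPKM in KO and 96.6 ± 8.75 FPKM in WT.

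**Figure D1:**
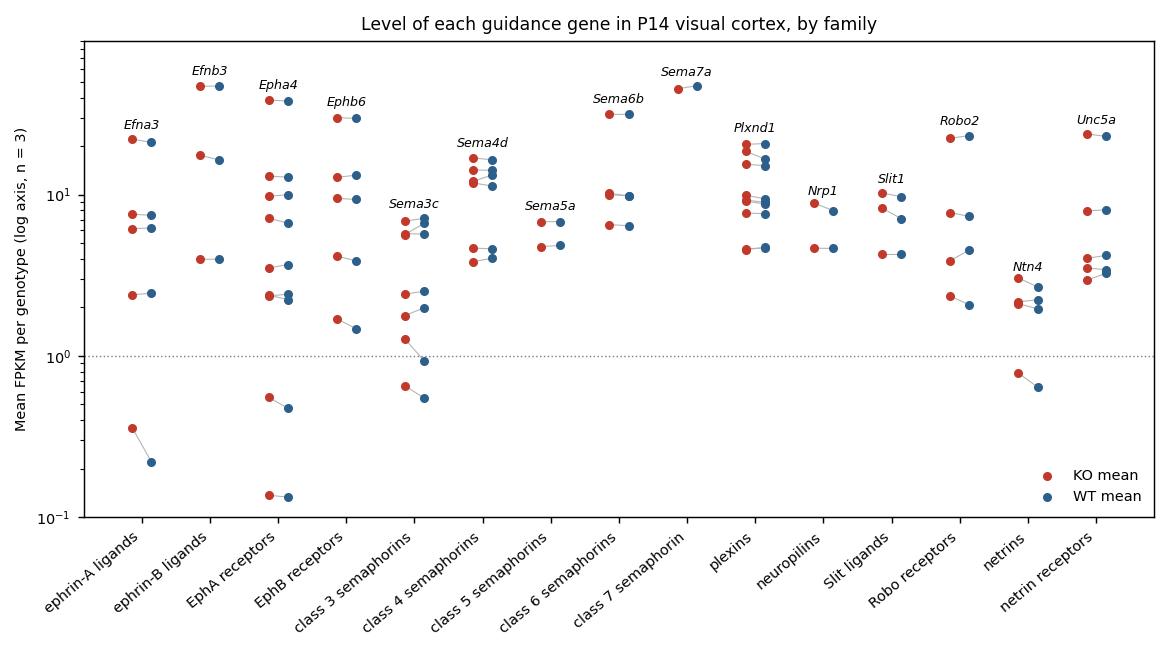
Mean FPKM of each of the 69 guidance genes (log axis) by family, with the KO mean in red left of the WT mean in blue, a grey line joining the 2 means of a gene and the highest gene of each family named. The dotted line is the 1 FPKM limit for testing, below which 5 genes lay, and the means of the highest genes, such as *Efnb3* at 47.0 FPKM in KO and 47.1 FPKM in WT, nearly coincide.

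No guidance gene passed the test between KO and WT cortex. Of the 64 tested, 0 were called in either direction by limma on log2(FPKM + 1) at an adjusted p under 0.05, where 0.00777% of all 12863 tested genes were called, namely *Chrdl1* alone (log2 fold change -1.93, SE 0.09, limma adjusted p = 0.000489). The added 1 shrinks the change of *Chrdl1*, whose mean FPKM in KO was 0.047 times that in WT. At an unadjusted p under 0.05 there was 1 guidance gene, *Sema3a*, against 0.63% of all tested genes. With the title number as a block there were 3, *Sema3a*, *Robo3* and *Sema3g*, against 3.91% of all tested genes, and again 0 were called, against 0.00777% of all tested genes. Log2 fold changes ran from -0.20 for *Sema3a* to 0.23 for *Sema3g*.

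The sizes that the data allow were bounded. The 95% interval of the log2(FPKM + 1) difference stayed inside a 1.5-fold change in both directions for 61 of the 64 guidance genes (95.3%), beside 95.9% of all tested genes. It stayed inside 1.25-fold for 32 of them (50%), beside 69.1% of all tested genes, and with the title number as a block for 58 (90.6%), beside 93.4%. The median SE was 0.111 for the guidance genes and 0.097 for all tested genes. The scale understates changes of genes near 1 FPKM, so these bounds are wider in FPKM for the lowest genes. The median log2 fold change was 0.012, with 40 genes higher and 24 lower in KO, beside a median of 0.005 over all tested genes, of which 6921 were higher and 5942 lower. Without WT library 3 the median of the guidance genes was -0.047.

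**Figure D2:**
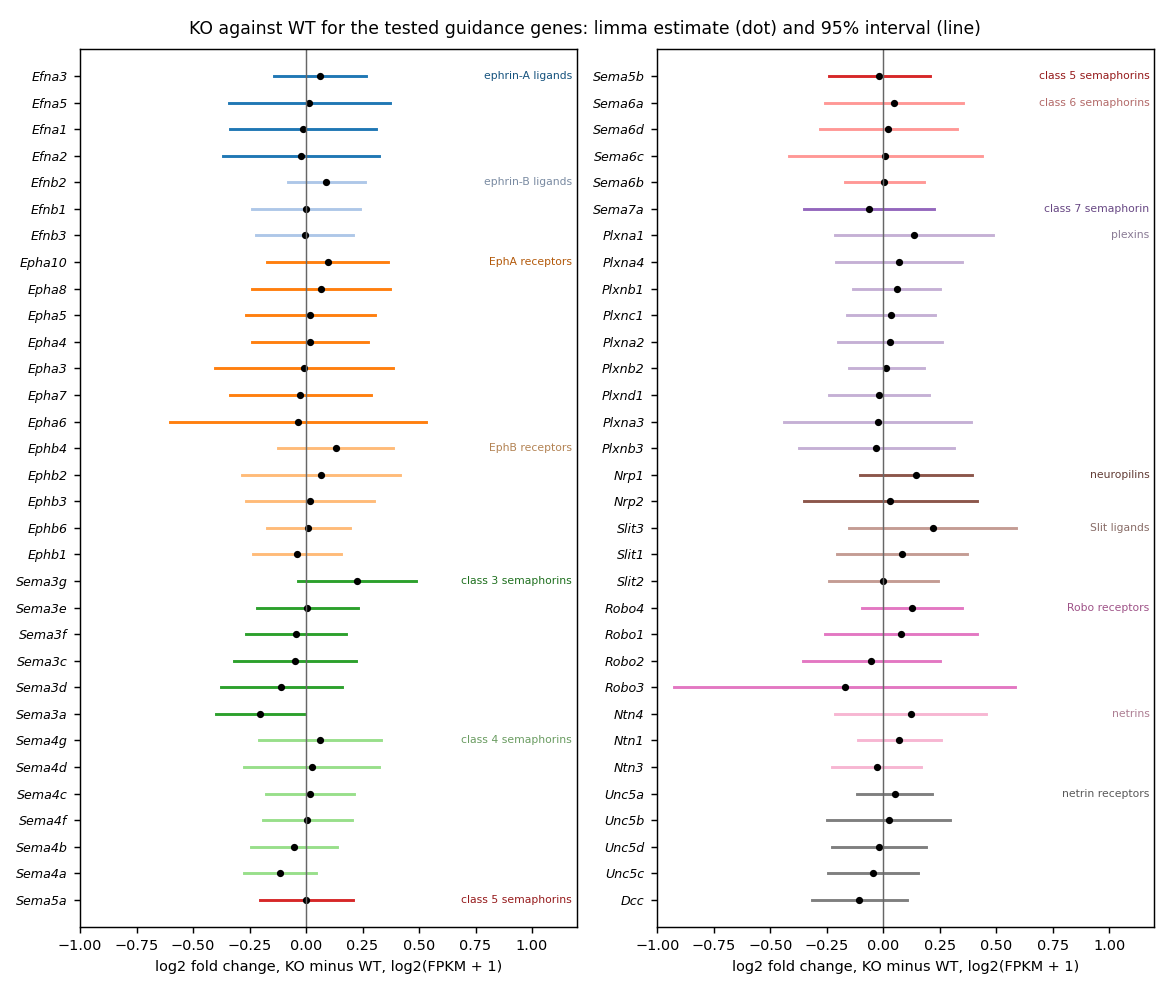
Log2 fold change (KO minus WT on log2(FPKM + 1), dot) with its 95% interval (line) for the 64 tested guidance genes, grouped and coloured by family. The interval of *Sema3a*, -0.40 to -0.01, is the one that does not cross 0, and that of *Robo3* is the widest.

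Among the contact-dependent ligands, none of the 7 tested ephrin genes was called, and their log2 fold changes ran from -0.02 to 0.09. *Efnb3* measured 51.1, 42.8 and 47.1 FPKM in the KO libraries and 51.5, 44.3 and 45.6 FPKM in the WT libraries. Both libraries numbered 1 were high and both numbered 2 were low, with the genotypes interleaved. *Efnb2*, a ligand known as a marker of arterial endothelium, measured 18.3, 16.4 and 17.9 FPKM in KO and 16.9, 16.4 and 15.8 FPKM in WT libraries (log2 fold change 0.09, SE 0.07). *Efna3*, the highest ephrin-A gene, averaged 22.1 ± 1.69 FPKM in KO and 21.1 ± 1.65 FPKM in WT (SD, n = 3 each). *Efna5*, an ephrin of the retinal map, averaged 7.57 ± 1.52 FPKM in KO and 7.44 ± 1.15 FPKM in WT.

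The Eph receptor genes likewise gave 0 calls among 12 tested, with a median log2 fold change of 0.017. *Epha4*, a receptor that binds ephrins of both classes, measured 43.3, 34.5 and 37.8 FPKM in KO libraries and 42.2, 37.9 and 34.1 FPKM in WT libraries, which overlap. The widest change of the group was that of *Ephb4*, a receptor of venous endothelium, at 1.76, 1.57 and 1.79 FPKM in KO and 1.63, 1.66 and 1.14 FPKM in WT libraries (log2 fold change 0.13, SE 0.11). WT library 3 was the low value, and the other WT libraries lay within the KO range. *Epha10*, a pseudokinase receptor, averaged 7.14 ± 0.436 FPKM in KO and 6.66 ± 1.08 FPKM in WT (SD, n = 3 each).

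The semaphorins held both ends of the range, with 11 of 19 tested genes higher and 8 lower in KO and 0 called. *Sema3a*, a secreted repellent that acts through neuropilin-1 and is also found in perineuronal nets, measured 6.19, 5.14 and 5.62 FPKM in KO libraries and 6.88, 6.63 and 6.42 FPKM in WT libraries. The KO values lay below the WT values without overlap, and the gene was lower in KO within each title number, with log2 differences of -0.13, -0.31 and -0.17. Over all libraries the difference was -0.20 (SE 0.08), with an unadjusted limma p of 0.0423, 0.0109 with the title number as a block, and a limma adjusted p of 0.9999. Reads per library were 746 to 1148 in KO and 1166 to 1682 in WT.

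*Sema3g*, a class 3 semaphorin of vascular endothelium, lay at the other end. It measured 1.13, 1.07 and 1.62 FPKM in KO libraries and 0.978, 0.893 and 0.929 FPKM in WT libraries. The groups did not overlap, and KO library 3 was well above the other 5. The fitted difference was 0.23 on the log2 scale (SE 0.11), with an unadjusted limma p of 0.0799, 0.0407 with the title number as a block, and a limma adjusted p of 0.9999. On reads recovered from the FPKM values, without the added 1, the log2 fold change was 0.44. All 12 endothelial markers had a positive log2 fold change (median 0.06), with 0 called. Their summed level was 131 to 145 FPKM in KO and 121 to 150 FPKM in WT libraries. Their part in the values of *Sema3g* was not tested, and in bulk tissue more cells of a type and more RNA per cell cannot be told apart, nor can fewer cells and less RNA per cell.

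The start regions of the pair at the ends of the range are shown because their KO and WT values did not overlap in opposite directions. They are RefSeq windows of GRCm38.p6 from 250 bases before to 50 after a gene's start, on the gene's strand, 5′ to 3′, with CpG dinucleotides in capitals. The *Sema3a* window lies at chr5:13396534-13396833, plus strand, and holds 2 CpG at 41.3% GC. The window belongs to a start 2.21 kb upstream of that in the authors' gene model. The *Sema3g* window lies at chr14:31217623-31217922, plus strand, at the start of the authors' model, and holds 8 CpG at 58.7% GC.
Sema3a: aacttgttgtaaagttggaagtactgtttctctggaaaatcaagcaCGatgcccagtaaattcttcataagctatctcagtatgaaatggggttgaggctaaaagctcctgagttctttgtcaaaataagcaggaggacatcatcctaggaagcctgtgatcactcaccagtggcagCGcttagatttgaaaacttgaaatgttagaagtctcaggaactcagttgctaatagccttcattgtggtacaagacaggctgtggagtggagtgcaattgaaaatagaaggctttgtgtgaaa
Sema3g: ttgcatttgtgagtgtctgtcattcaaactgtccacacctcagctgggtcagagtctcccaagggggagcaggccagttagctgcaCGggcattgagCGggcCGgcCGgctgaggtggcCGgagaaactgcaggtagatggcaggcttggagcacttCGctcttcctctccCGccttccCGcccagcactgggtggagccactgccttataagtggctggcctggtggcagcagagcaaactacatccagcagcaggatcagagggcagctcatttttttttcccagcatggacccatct

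In the other semaphorin classes 0 genes were called either. *Sema4a*, a transmembrane semaphorin, measured 12.4, 11.9 and 12.0 FPKM in KO libraries and 12.6, 13.7 and 13.4 FPKM in WT libraries, without overlap (log2 fold change -0.12, SE 0.07, limma adjusted p = 0.9999). The gap between the highest KO and the lowest WT library, both numbered 1, was narrow. *Sema7a* measured 51.1, 47.1 and 38.0 FPKM in KO libraries and 52.0, 47.4 and 42.4 FPKM in WT libraries, so that it was lower in KO within each number while the groups overlapped. *Sema5a* and *Sema5b*, with thrombospondin repeats, had log2 fold changes of 0.001 and -0.02. The 4 class 6 genes, whose proteins bind A-type plexins, lay between 0.004 and 0.05.

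Of the semaphorin receptors, 0 of the 9 plexin genes and 0 of the 2 neuropilin genes were called. *Plxnd1*, the receptor of Sema3E, averaged 20.5 ± 2.11 FPKM in KO and 20.7 ± 1.61 FPKM in WT (SD, n = 3 each). *Plxna1*, a partner of the neuropilins, had the largest log2 fold change among plexins at 0.14 (SE 0.15), with 22.9, 15.4 and 17.2 FPKM in KO libraries and 19.0, 16.3 and 14.7 FPKM in WT libraries. The groups overlapped, with KO library 1 the highest. *Nrp1*, the binding receptor of Sema3A and a co-receptor for VEGF, measured 9.65, 8.10 and 8.91 FPKM in KO libraries and 8.92, 8.10 and 6.87 FPKM in WT libraries (log2 fold change 0.15, SE 0.11). *Nrp2* measured 4.52, 4.56 and 4.88 FPKM in KO libraries and 5.54, 5.23 and 3.16 FPKM in WT libraries, and WT library 3 was the lowest for both neuropilins.

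The 3 Slit genes and 4 Robo genes gave 0 calls. *Slit3* had the second largest positive log2 fold change of all guidance genes, 0.22 (SE 0.16), from 7.87, 8.44 and 8.43 FPKM in KO libraries and 6.89, 9.14 and 5.28 FPKM in WT libraries. The groups overlapped, and WT library 3 held the lowest value and WT library 2 the highest. *Slit1* averaged 10.3 ± 0.611 FPKM in KO and 9.70 ± 1.75 FPKM in WT (SD, n = 3 each), and *Slit2* averaged 4.25 ± 0.435 FPKM in KO and 4.26 ± 0.511 FPKM in WT. *Robo4*, the Robo gene of endothelium, measured 2.29, 2.46 and 2.29 FPKM in KO libraries and 1.75, 2.21 and 2.26 FPKM in WT libraries, without overlap but nearly touching (log2 fold change 0.13, SE 0.10). The endothelial marker levels given with *Sema3g* apply here too, and their part was not tested.

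*Robo3*, a divergent Robo known for letting commissural axons cross the midline, varied most between libraries. It measured 3.56, 5.89 and 2.27 FPKM in KO libraries and 3.91, 6.91 and 2.77 FPKM in WT libraries. Both libraries numbered 2 were high and both numbered 3 low, and KO was below WT within each number, with log2 differences of -0.11, -0.20 and -0.21. Over all libraries the difference was -0.17 (SE 0.33), and its 95% interval was -0.93 to 0.58. With the title number as a block the interval was -0.31 to -0.03, with a limma adjusted p of 0.9989. *Robo3* and *Robo4* lie tail to tail 2.0 kb apart on chromosome 9, and the sources used here do not say if reads were assigned by strand.

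The window at the start of *Robo3* is shown because this gene differed most between libraries. It is the RefSeq window of GRCm38.p6 at chr9:37433126-37433425, minus strand, at the start of the authors' gene model, and holds 17 CpG (capitals) at 63.3% GC.
Robo3: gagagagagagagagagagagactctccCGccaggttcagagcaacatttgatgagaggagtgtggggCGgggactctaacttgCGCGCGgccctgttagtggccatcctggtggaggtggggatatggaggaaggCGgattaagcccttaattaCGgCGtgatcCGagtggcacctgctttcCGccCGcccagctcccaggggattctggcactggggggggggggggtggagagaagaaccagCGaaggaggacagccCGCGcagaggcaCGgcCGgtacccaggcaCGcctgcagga

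Among the netrins and their receptors, 0 of 3 tested ligand genes and 0 of 5 receptor genes were called. *Ntn1*, the founding netrin of vertebrate axon guidance, measured 2.08, 2.08 and 2.16 FPKM in KO libraries and 2.03, 1.84 and 2.01 FPKM in WT libraries. The groups did not overlap, though KO library 2 and WT library 1 were close (log2 fold change 0.07, SE 0.08). *Unc5a*, which mediates repulsion by netrin, measured 23.5, 23.3 and 24.6 FPKM in KO libraries and 21.7, 24.4 and 22.8 FPKM in WT libraries, which overlap. *Dcc*, the attractive receptor, measured 3.13, 2.74 and 2.96 FPKM in KO libraries and 3.50, 3.37 and 2.89 FPKM in WT libraries (log2 fold change -0.11, SE 0.09). *Ntn4* overlapped as well, with KO library 1 the highest at 3.79 FPKM. The row of *Ntn3* overlaps that of *Tbc1d24* on the same strand and that of *Unc5a* overlaps *Hk3* on the other, so reads of these neighbours could enter their values.

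In all, KO values lay wholly above WT values for 3 of the 64 tested guidance genes, *Sema3g*, *Robo4* and *Ntn1*, against 1.76% of all tested genes. They lay wholly below for 2, *Sema3a* and *Sema4a*, against 1.19%, and in either direction for 5, against 2.95%. KO was higher in 3 of 3 title numbers for 8 of 64 (12.5%), against 12.3% of all tested genes, and lower in 3 of 3 for 4 of 64 (6.25%), against 9.59%. The last 2 shares stood near those of all genes.

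The 5 genes under 1 FPKM were *Epha1*, *Epha2*, *Efna4*, *Sema3b* and *Ntn5*. *Epha1* was the lowest and *Efna4*, an ephrin-A ligand gene, the next. *Efna4* measured 0.405, 0.333 and 0.335 FPKM in KO libraries and 0.263, 0.160 and 0.240 FPKM in WT libraries. The groups did not overlap, on 12 to 17 reads in KO and 7 to 16 reads in WT libraries. Tested without a filter on low values, its log2 fold change was 0.15 (SE 0.04, limma adjusted p = 1). *Epha2*, an epithelial Eph receptor, measured 0.542, 0.542 and 0.576 FPKM in KO libraries and 0.468, 0.521 and 0.436 FPKM in WT libraries, again without overlap, with a limma adjusted p of 1 when tested. *Epha1*, *Sema3b* and *Ntn5* overlapped between genotypes. How often other genes under 1 FPKM did not overlap was not counted.

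**Figure D3:**
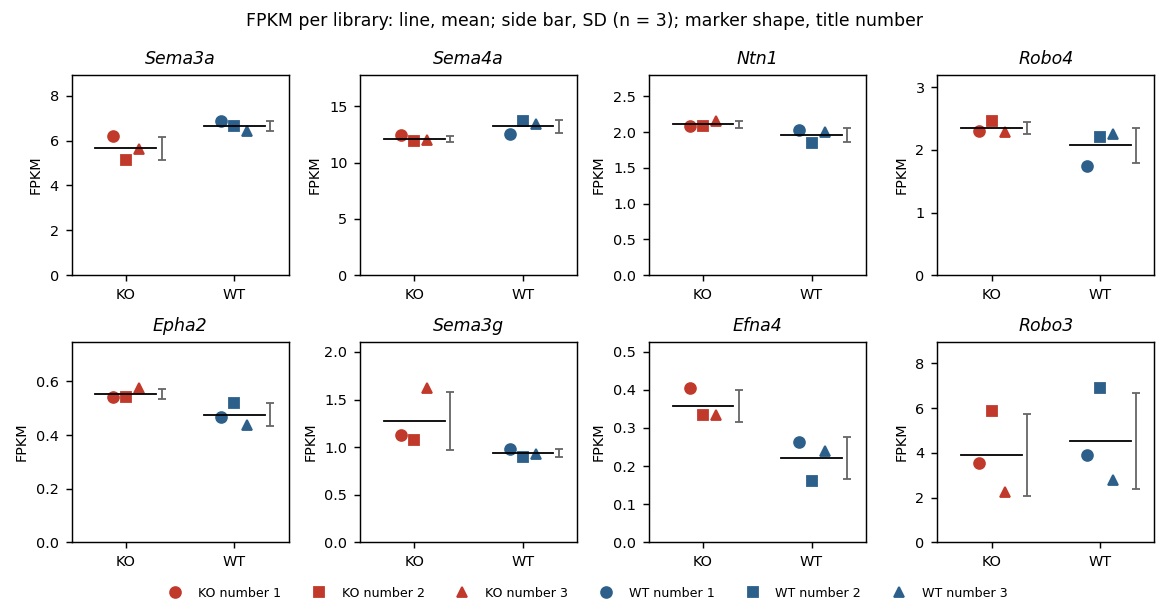
FPKM in every library (marker shape, title number) for the 7 guidance genes whose KO (red) and WT (blue) values did not overlap and for *Robo3*, with the mean as a line and the SD as a side bar (n = 3 each). *Efna4* and *Epha2* were under 1 FPKM, and no share of genes without overlap was computed at that level. For the rest of the 7, the share over all tested genes was 2.95%. The gaps between the groups are narrow, as for *Sema3a* at 5.14 to 6.19 FPKM in KO and 6.42 to 6.88 FPKM in WT, and *Robo3* is ordered by title number rather than by genotype.

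Within title numbers the direction of most families varied. The median log2 fold change of the 64 tested genes was 0.047, -0.046 and 0.056 within numbers 1, 2 and 3, with 43, 21 and 44 of 64 higher in KO. Over all tested genes these medians were -0.007, 0.013 and 0.006. Among plexins 8, 2 and 9 of 9 were higher in KO within numbers 1, 2 and 3, with medians of 0.058, -0.085 and 0.128. The 3 Slit genes were higher in 3, 0 and 3 of 3, with medians of 0.110, -0.141 and 0.365. The neuropilins had medians of -0.070, -0.080 and 0.415, and in number 3 the WT library held the lowest value of the 6 for both genes. The netrins had medians of 0.026, 0.080 and 0.042, with 3, 2 and 2 of 3 tested genes higher in KO. *Sema7a*, the only class 7 semaphorin gene, had log2 fold changes of -0.025, -0.010 and -0.157. The netrin median and *Sema7a* kept 1 direction, but among the netrin genes only *Ntn1* did.

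The levels of striatal markers were also unequal within numbers 1 and 3 and not within number 2, with median log2 fold changes of -1.08, 0.016 and -0.71. With their level as a covariate the median of the guidance genes was 0.037 and 0 were called. What part striatal tissue has in the within-number values was not tested further.

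**Figure D4:**
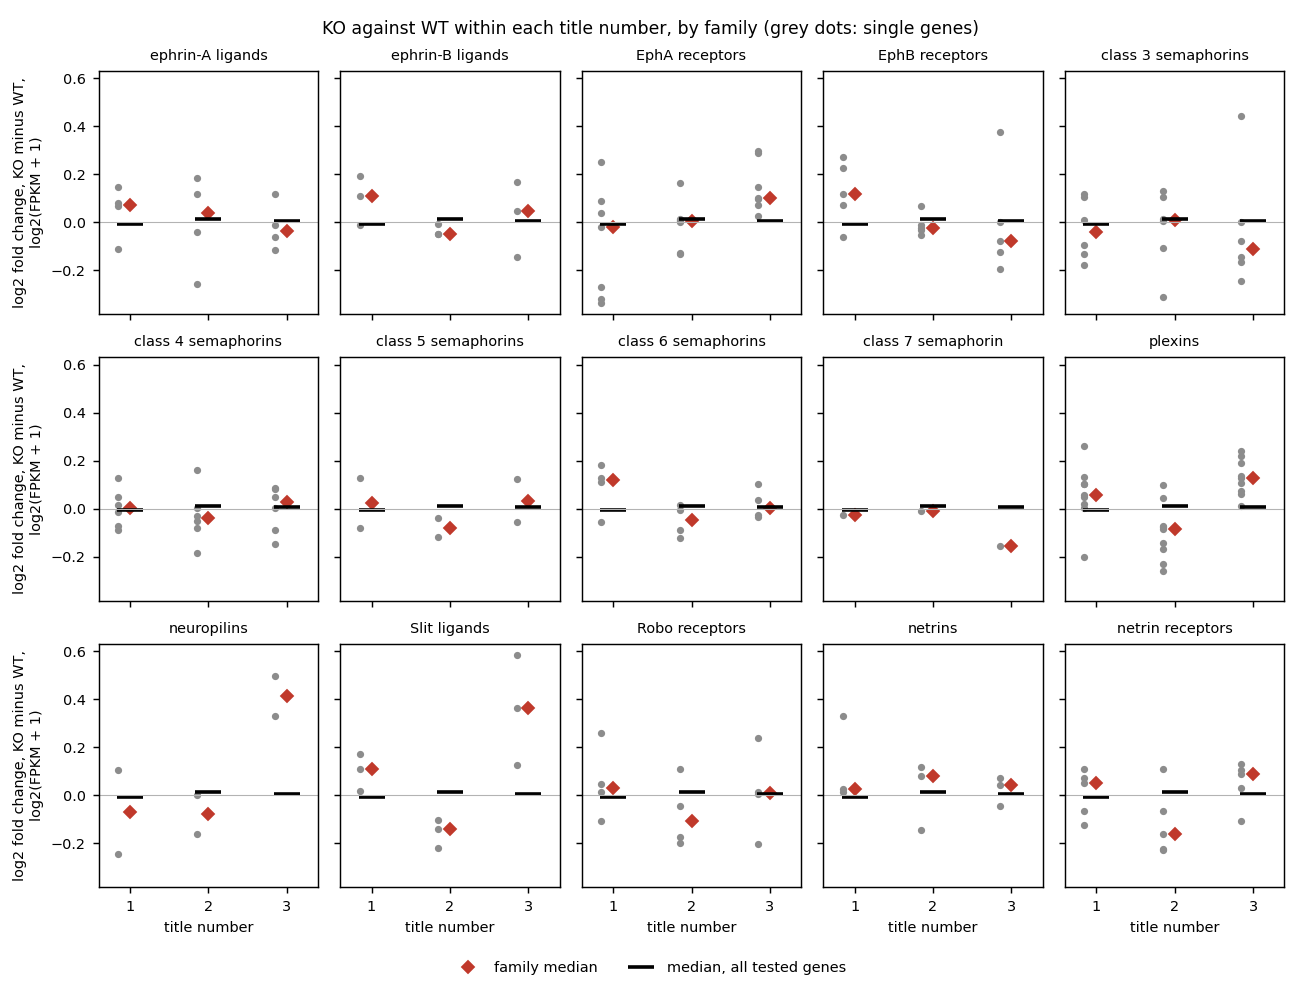
Log2 fold change (KO minus WT on log2(FPKM + 1)) within each title number for the tested genes of the 15 families, with grey dots for genes, a red diamond for the family median and a black bar for the median of all tested genes. Slits and plexins lie mostly above 0 in numbers 1 and 3 and mostly below it in number 2, with Slit medians of 0.110, -0.141 and 0.365.

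More guidance genes were called between title codes than between genotypes. With genotype in the model, 19 of 64 were called by limma's F test at an adjusted p under 0.05 (29.7%), against 30.6% of all tested genes, so the share was that of genes in general. Without KO library 1, 7 were called (10.9%), beside 16.1% of all tested genes, and without WT library 1, 12 were called (18.8%), beside 15.8%. The labels do not say what a code stands for. Both libraries of the highest number lay above the other 4 for 28 of 64 genes, against 51.1% of all tested genes.

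Of the 64 tested guidance genes, 12 were called and highest in number 1, against 7.67% of all tested genes. They included *Sema6c*, *Sema7a*, *Efna5*, *Epha5*, *Robo2*, *Plxna1*, *Plxna3* and *Efnb3*. Another 6 of the 64 were called and highest in number 2 (11.2% of all tested genes) and 1 of the 64, *Sema6a*, in number 3 (11.8%). Likewise 2 of the 64 were called and lowest in number 1 (4.98% of all tested genes), 6 in number 2 (13.7%) and 11 in number 3 (11.9%). None of these splits was tested against other genes.

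*Robo3* gave the strongest difference, with number means of 3.74, 6.40 and 2.52 FPKM for numbers 1, 2 and 3, 2.54-fold from highest to lowest (limma adjusted p = 0.00159). It was called in 15 of 15 alternatives in which it was tested, and no other guidance gene was called in every one. *Sema6c*, a transmembrane semaphorin, measured 8.61, 5.42 and 5.53 FPKM in KO libraries and 7.89, 5.98 and 5.37 FPKM in WT libraries (limma adjusted p = 0.00781), high in both libraries numbered 1. *Sema7a* was highest in number 1 and lowest in number 3 (limma adjusted p = 0.0117). *Epha6*, a receptor of the ephrin-A ligands, measured 2.73, 4.73 and 3.05 FPKM in KO libraries and 3.50, 5.25 and 2.31 FPKM in WT libraries, high in both libraries numbered 2 as *Robo3* was.

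*Sema4d* and *Plxnb3*, which mouse oligodendrocytes are known to express, were the 2 genes lowest in number 1. *Sema4d* measured 14.3, 20.4 and 15.9 FPKM in KO libraries and 15.3, 18.1 and 15.9 FPKM in WT libraries. *Plxnb3* measured 3.61, 5.79 and 4.43 FPKM in KO libraries and 4.30, 5.34 and 4.39 FPKM in WT libraries. The summed level of 12 mature oligodendrocyte markers was 1467, 2854 and 2224 FPKM in KO libraries and 1855, 2489 and 3114 FPKM in WT libraries, and 10 of the 12 were called between codes. By title number the summed markers averaged 1661, 2671 and 2669 FPKM, so they too were lowest in number 1. WT library 3 held the highest marker level, and KO library 2 held the highest level of *Sema4d* and of *Plxnb3*. The summed striatal markers averaged 219.3, 294.7 and 198.5 FPKM in numbers 1, 2 and 3, where *Robo3* averaged 3.74, 6.40 and 2.52 FPKM. By library they were highest in WT library 1, in which *Robo3* was at 3.91 FPKM. The part of these tissues in the differences was not tested.

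**Figure D5:**
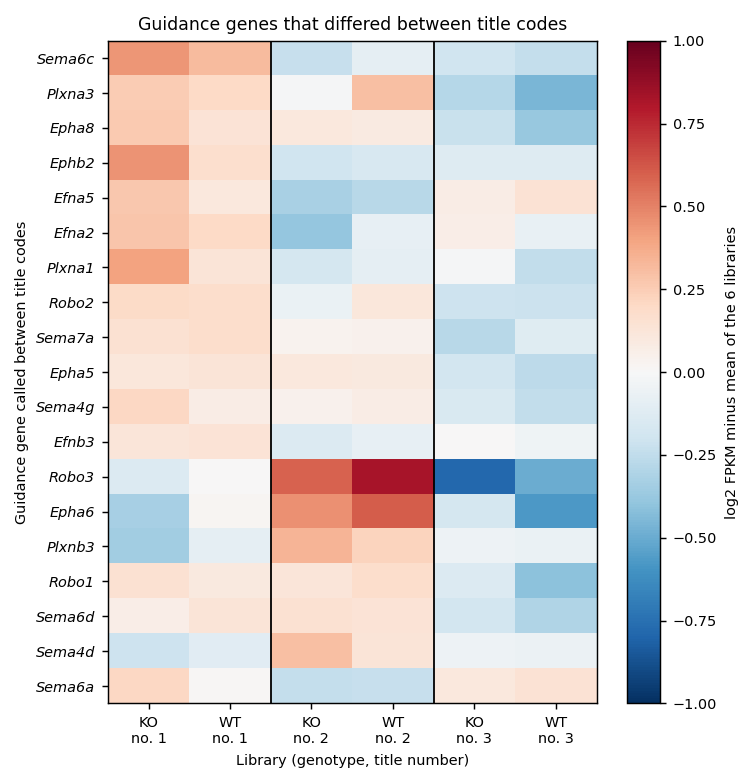
Log2 FPKM of the 19 guidance genes called between title codes, each minus its mean over the 6 libraries (red above, blue below), with KO left of WT within each title number and genes grouped by the number in which they were highest. Both libraries of a number mostly share a colour, as for *Robo3*, with 5.89 and 6.91 FPKM in KO and WT libraries numbered 2.

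Other genes of the same pathways gave the same count. Of 59 tested genes for intracellular guidance effectors (such as kinases and cytoskeletal partners), 0 were called, with 40 higher in KO and a median log2 fold change of 0.019. Those with the smallest p were *Ngef*, an exchange factor that acts downstream of EphA4, at -0.14, and *Mical1*, an oxidoreductase downstream of plexins, at 0.13. Of 41 other guidance cues and co-receptors, 0 were called. *Cxcl12*, a chemokine of meninges and vessels, measured 15.8, 15.6 and 16.5 FPKM in KO libraries and 13.4, 14.2 and 14.2 FPKM in WT libraries, without overlap (log2 fold change 0.18). The summed level of 10 meningeal fibroblast markers was 94.3 to 118 FPKM in KO and 85.7 to 91.9 FPKM in WT libraries, and its part was not tested. Of 19 shedding and matrix genes 0 were called, with a log2 fold change of 0.11 for *Timp3*, a metalloproteinase inhibitor. Between title codes 28 effector genes (47.5%), 17 other cues and co-receptors (41.5%) and 5 shedding and matrix genes (26.3%) were called, beside 30.6% of all tested genes.

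Gene length was not used in choosing the genes, and it ranged widely among them. The median span of the 64 tested genes was 62.8 kb, against 21.7 kb for all tested genes, and 46.9% of them exceeded 100 kb, against 13.1%. *Dcc* was the longest at 1097 kb and *Efna4* the shortest at 4.6 kb. Several lay close together: 11 neighbouring pairs were within 1 Mb of each other, among them *Efna1*, *Efna3* and *Efna4* on chromosome 3 and *Sema3d*, *Sema3a* and *Sema3e* on chromosome 5. *Slit2* and *Slit3* host the microRNA genes *Mir218-1* and *Mir218-2*. RefSeq windows were held for 59 of the 69 genes, 75 windows in all, with a median GC content of 64.3% against 61.0% for tested genes. The motif GGCGCC, searched on both strands, occurred in 21.3% of the windows, against 21.4% of those of tested genes, and TATAAA in 2.67%, against 7.1%.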

How the data were processed

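RNA was measured in 6 libraries with columns in the deposited table, and genotype and title number were taken from the labels. The authors deposited FPKM values for 24453 gene rows on mm10. Per the file headers, HOMER counted exon reads with transcripts condensed to 1 row per gene. Its command names 12 libraries, and those without columns are not analysed here. FastQC, HOMER 4.8.3 and STAR 2.4.0k are the tools listed per the submitters' processing notes. The sources used here name no strand option. Per the labels' protocols, a stranded mRNA kit was used. FPKM gives relative levels only.

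Depth was recovered from the steps of 1 read in the FPKM values, of which 100.0% of those checked were whole within 0.1 read, and 84.8 to 87.0% of reads fell in genes. Where no read was counted, the upper limit (3 counts) for 2000 bp of exon was 0.0393 to 0.0662 FPKM, counting error only. The test was limma 3.58.1 (R 4.3.3), 2-sided, with an intensity trend, on log2(FPKM + 1) for the 12863 genes averaging at least 1 FPKM, Benjamini-Hochberg adjusted over all of them and called at 0.05. It was tested on simulated data. Log2 fold changes are KO minus WT. Differences between title codes used an F test with genotype in the model. Tables and figures used Python 3.11.15 with numpy 2.4.6, pandas 2.3.3 and matplotlib 3.10.9.

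Libraries of the same title number deviated together: their deviations from the group means correlated at 0.432, 0.712 and 0.671, against -0.610 to -0.0608 for other pairings. Deviations cancel out within each genotype, so positive values for the same number force negative ones elsewhere, which are not separate evidence. From the same-number correlations and the shared code in the titles, the numbers were taken to pair the libraries. A fit with the number as a block was an alternative. No libraries were duplicates. Other alternatives were pseudocounts, filters, quantile normalization, no trend, array weights, limma-voom on recovered reads, a striatal covariate and leaving out libraries. Genes named were, by rule, the highest and the smallest p of each family, the smallest p and largest changes of the 64, and those without overlap. Genes named beyond it (such as *Nrp2*, *Slit2*, *Epha6* and *Plxnb3*) were chosen after their values were seen. A gene taken by the rule is left unreported. The genes, lists and tests were chosen with earlier results of these data known.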

Additional observations from a re-analysis of the deposited data

How the results depend on the processing

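The count of guidance genes called between KO and WT was 0 in each of the 22 alternatives, the replicate block included, and the lowest adjusted p of any was 0.874. Genes called among all tested, 1 in the main test and 1 with the replicate block, were 2 with a pseudocount of 0.1, 6 without a filter on low values and 0 with a mean of 5 FPKM or more. They were 2 with the block and limma-voom on recovered reads, and 2 with the block and a pseudocount of 0.1, both added after seeing the data. Leaving out libraries gave 0 to 4, with 4 without KO library 2, 2 without WT library 2 and 0 without both libraries numbered 1 or both numbered 2. The median log2 fold change of the guidance genes ran from -0.047 to 0.048 over the libraries left out. Of 32 named and tested genes, 12 kept their sign in every alternative, and 74 of 696 values changed sign. As no guidance gene was called in any alternative, none of these values could be a called one.

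Between title codes, 4 guidance genes (5.8%) and 1347 of all genes (6.81%) were called without a filter, and 29 guidance genes (45.3%) with limma-voom, beside 37.1% of all genes. Leaving out libraries gave 7 to 25 guidance genes and 2038 to 3923 of all genes. The cause was not tested. Depth limits the genes under 1 FPKM most: *Efna4* rested on 7 to 17 reads per library. With 3 libraries per genotype an exact permutation test cannot go below p = 0.1.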
